A study of Drosophila melanogaster with 12 samples.

Results

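The genes described here are the long noncoding RNA gene of hsrω, named Hsromega in the tables, and 9 genes of hnRNPs and related RNA-binding proteins of the omega speckles. They were chosen by name: Hsromega, Hrb87F, Hrb98DE, Hrb27C, sqd, glo, sm, TBPH, caz and nonA. All 10 names matched a gene row, of 15904 rows in all, and all 10 were tested in each of the 6 pairs of groups. None was called in any pair, where 0.643% to 1.74% of all tested rows were called per pair, so this is no result about the members. The level of the lncRNA ranged 1.56-fold over the 4 groups, within its error. The 9 protein genes each ranged between 1.09-fold and 2.04-fold over the 4 groups.

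Nuclear hsrω transcripts of Drosophila organise omega speckles, bodies between chromatin domains in which hnRNPs that are not bound to pre-mRNA are held. hnRNPs coat nascent transcripts and take part in splicing, export, localisation and translation of mRNA. hsrω is active in most cell types and is one of the RNAs strongly induced by heat shock, when hnRNPs gather at its locus.

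RNA came from eye discs of wandering larvae of Drosophila melanogaster, in 4 groups of 3 samples, each from 30 pairs of discs. All groups were w1118 and carried sev-GAL4, a driver active in the sevenless-expressing cells of the disc, over UAS-GFP. The EP3037 group carried EP3037, an insertion labelled as raising hsrω, over UAS-RasV12, a constitutively active Ras. The RNAi group carried UAS-hsr{omega}RNAi over UAS-RasV12. The Ras group carried UAS-RasV12 over the allele dco2, and the control carried dco2 with no activated Ras. A difference of the EP3037 or RNAi group from the Ras group or the control therefore cannot be told apart from one due to dco2, which neither of these groups lists. The driver acts in some cells of the disc while RNA was taken from all of it, and fewer cells of a type and less RNA per cell cannot be told apart. Replicates are not said to come from separate crosses, so the p-values may measure technical spread only. The RNAi group entered Cuffdiff as 4 inputs, of which 2 carry the name of 1 sample, so that sample counts as 2 replicates in every p-value of the pairs with RNAi. Its effect on these p-values was not tested.

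Levels are the authors' FPKM, fragments scaled by transcript length and library size, with 1 pooled value per gene and group. The tables have no replicate values, so levels carry neither SD nor n, and read depth is unknown. The error used here is the error term of the authors' Cuffdiff statistic: the deposited log2 change divided by the deposited test statistic. Its squares added up across pairs of groups to within a relative 1.49e-05 over 10413 rows, so it splits into a relative error for each group. A gene is called at a deposited q at or under 0.05. The deposited p-values correspond to a smaller error than this term, since the statistic was a median 0.559 times the normal quantile of the p over 54886 tests. The error bars given here are thus wide relative to the p-values.

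Eye disc markers, among them the transcription factors ey, so, eya and gl, were at 1 FPKM or more in 10 of 10 cases in every group, and their summed level was 467 FPKM in the EP3037 group, 550 in the RNAi group, 467 in the Ras group and 454 in the control. Markers of other tissues were present too. Summed haemocyte markers were at 119 FPKM in the EP3037 group, 182 in the RNAi group, 83.4 in the Ras group and 96.6 in the control. Of 8 haemocyte markers 5 rose in the RNAi group relative to Ras, where 0.743% of all tested rows were called, and 2 fell in the EP3037 group relative to RNAi. Summed fat body markers were at 23.0, 9.42, 18.4 and 50.8 FPKM in the same order, muscle markers at 75.9, 51.8, 74.1 and 93.5, and glial markers at 9.88, 11.8, 11.7 and 10.7. Salivary gland markers summed to 19.1, 7.56, 17.3 and 23.7 FPKM and ring gland markers to 37.2, 35.9, 99.0 and 77.3. In the RNAi group 5 of 6 fat body markers and 3 of 4 muscle markers fell relative to the control, and 3 of 6 fat body markers rose in the EP3037 group relative to RNAi. All 3 ring gland markers fell relative to Ras in both the EP3037 and the RNAi group. Relative to the control, 4 of 6 fat body and 2 of 8 haemocyte markers fell in the Ras group, 3 of 6 fat body and 2 of 3 ring gland markers fell in the EP3037 group, and 2 of 3 ring gland markers fell in the RNAi group. The other calls were 2 haemocyte markers that rose and 1 that fell for RNAi over control, 2 that rose for EP3037 over Ras, 1 fat body marker that fell for RNAi over Ras and 1 eye disc marker that rose for RNAi over control. No marker of these lists was listed at 0 in any group. Their part in the differences below was not tested. The row of Ras85D, the endogenous gene of the Ras protein that the transgene also encodes, was at 142 FPKM in the EP3037 group, 151 in the RNAi group, 121 in the Ras group and 74.4 in the control. Reads of the transgene may count in this row, so it does not give the endogenous level alone.

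Hsromega (FBgn0001234, a noncoding gene on the plus strand of chromosome 3R, dm6 positions 21296127 to 21317836) was among the most abundant genes of the disc. It stood at 606 FPKM in the EP3037 group, 398 in the RNAi group, 389 in the Ras group and 543 in the control. In each group between 97.2% and 98.0% of the rows at 1 FPKM or more lay below it. The level in the group labelled as lowered was thus next to that of Ras alone, and the level in the group labelled as raised stood highest, next to the control.

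None of these differences exceeded the error of the measurement. The relative error of the level was 86.0% in the EP3037 group, 80.7% in the RNAi group, 93.6% in the Ras group and 78.0% in the control. For EP3037 over Ras the log2 change in the authors' deposited table was 0.64 with an error of 1.83 (p = 0.486). Read as a normal error, that p spans a range of 95% from 0.447-fold to 5.44-fold. For RNAi over Ras the log2 change was 0.04 with an error of 1.78 in the authors' deposited table (p = 0.966), and its range was 0.325-fold to 3.23-fold. EP3037 over RNAi gave 0.60 with an error of 1.70 in the authors' deposited table (p = 0.385), the smallest p of this gene among the 6 pairs. Between the groups without either construct, Ras over control gave -0.48 with an error of 1.76 in the authors' deposited table (p = 0.626). Relative to the control, EP3037 gave 0.16 with an error of 1.67 (p = 0.84) and RNAi gave -0.45 with an error of 1.62 (p = 0.545) in the authors' deposited tables. No neighbours in the order EP3037, control, RNAi, Ras differed beyond their error.

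**Figure D1:**
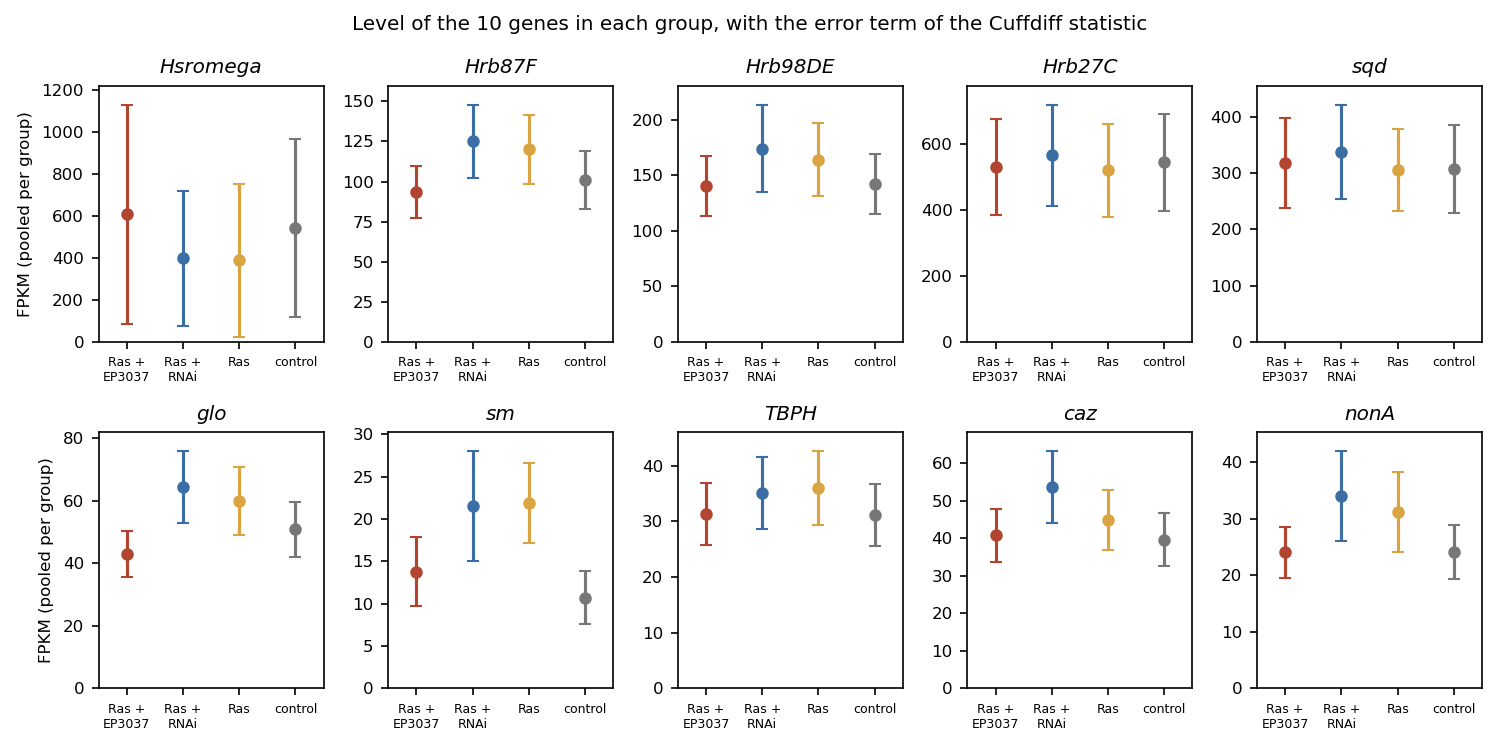
Pooled FPKM of each of the 10 genes (y axes, each from 0) in the EP3037, RNAi, Ras and control groups (x axes); bars are the error term of the Cuffdiff statistic for that group. The bars of Hsromega extend 78.0% to 93.6% of its level to either side, while the protein genes have relative errors between 17.2% and 30.2%.

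The error of Hsromega was large beside that of most rows of its level. Among 344 rows at a mean of 100 FPKM or more and an annotated transcript of at least 1000 nt, the median error of the log2 change was 0.399, and 1 row had a larger error than Hsromega. Its median error over the 6 pairs was 1.73. Of 12661 tests in the 6 tables with an error of 1.57 or more, 0 were called in the authors' deposited tables, and 2804 of these tests lay within 10% of the error of Hsromega, with log2 changes of up to 7.99. No test at this error was called, whatever its fold. The annotation lists 7 transcripts of Hsromega, between 1176 and 21216 nt long, and the deposited row gives 1 value for all of them. The long nuclear forms, which are those of the omega speckles, are therefore not separated from the short cytoplasmic ones.

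**Figure D2:**
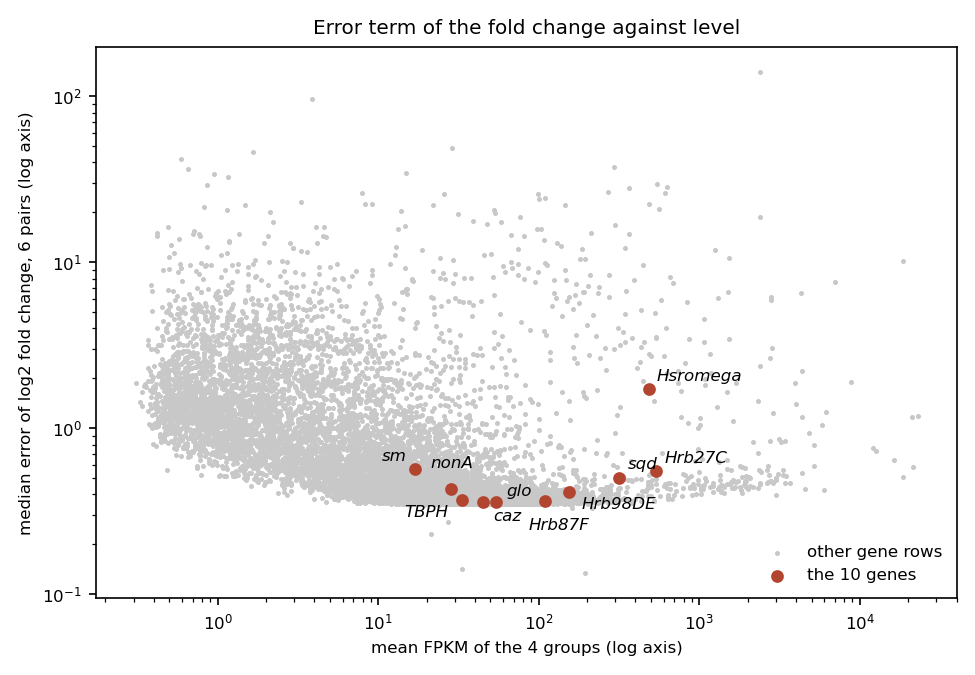
Median error of the log2 fold change over the 6 pairs (y axis, log scale) against the mean FPKM of the 4 groups (x axis, log scale), with 1 point per gene row and the 10 genes in red. Hsromega, at a median error of 1.73, stands above most rows of its level, with 118 of 709 rows at 100 FPKM or more above it, and the other members lie between 0.36 and 0.57.

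Rows around the locus were read because EP3037 is an insertion and the tables give no position for it. Within 50 kb of Hsromega lay 12 rows, none of which overlaps it, and 0 were called in any pair. Over all tested rows 0.643% to 1.74% were called per pair, and 5.89% had an unadjusted p at or under 0.05 for EP3037 over Ras in the authors' deposited table. The counts here are thus no result about the locus. For EP3037 over Ras 10 of them were tested, with log2 changes between -0.52 and 0.10 and 1 at an unadjusted p at or under 0.05 in the authors' deposited table. This was AP-2sigma, an adaptor subunit of clathrin coats, at 23.2 FPKM in the EP3037 group and 33.4 in the Ras group (p = 0.036 in the authors' deposited table). The nearest rows downstream were CG16791, at 32.5 FPKM in the EP3037 group, 39.4 in the RNAi group, 37.6 in the Ras group and 35.7 in the control, and the row led by mod(mdg4), a chromatin insulator protein, at 204, 213, 192 and 235 FPKM in the same order. Rab1, a GTPase of transport out of the endoplasmic reticulum, was at 140 FPKM in the EP3037 group and 100 in the RNAi group (p = 0.0152 in the authors' deposited table, not called).

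**Figure D3:**
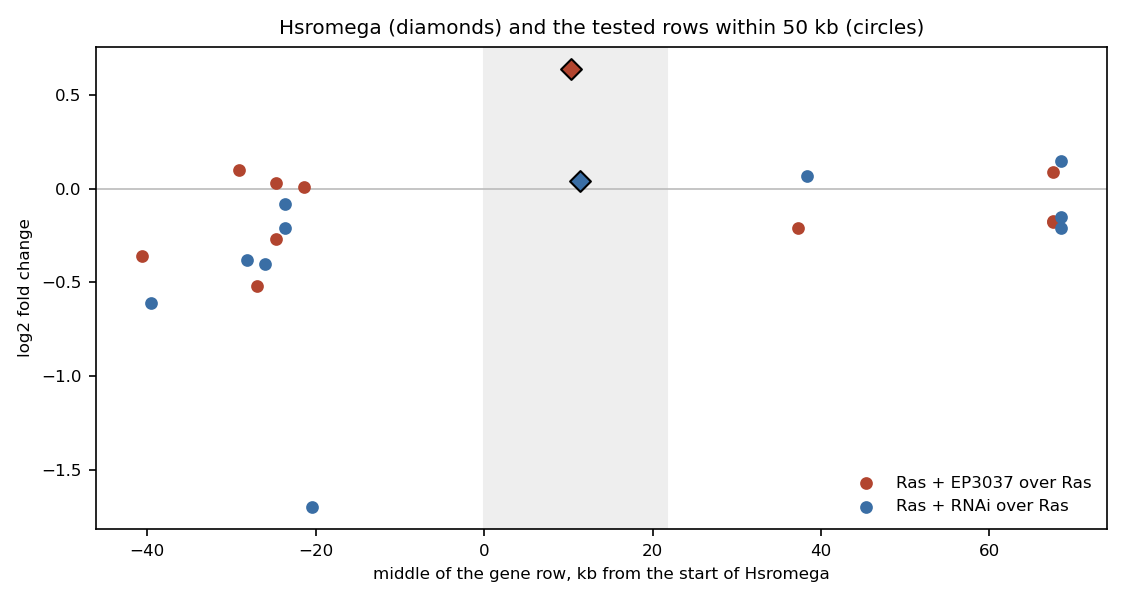
Log2 fold change over Ras (y axis) of Hsromega (diamonds, its extent shaded) and of the tested rows within 50 kb of it (circles), against the distance of each row's middle from the start of Hsromega in kb (x axis). Red is EP3037 over Ras and blue is RNAi over Ras; the lowest blue point is CG3301, at 0.192 FPKM in the RNAi group.

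Hrb27C and sqd were the most abundant of the protein genes and the most even. Hrb27C (FBgn0004838, plus strand, chromosome 2L, 6920704 to 6932057), an hnRNP of the A/B family that acts in splicing and in mRNA localisation and translation in the oocyte, was at 530 FPKM in the EP3037 group, 566 in the RNAi group, 521 in the Ras group and 545 in the control. The highest and lowest of these levels differ 1.09-fold. The squid gene sqd (FBgn0263396, minus strand, chromosome 3R, 13634862 to 13646304), whose product localises gurken mRNA, was at 318 FPKM in the EP3037 group, 337 in the RNAi group, 306 in the Ras group and 307 in the control. The smallest p among the 6 pairs was 0.688 for Hrb27C and 0.614 for sqd in the authors' deposited tables, both for RNAi over Ras. Their errors on the log2 scale were between 0.50 and 0.56, and among tests with such an error the smallest fold called was 2.05 for Hrb27C and 1.86 for sqd. These are the smallest seen among the called tests, not a limit of detection.

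Hrb98DE and Hrb87F encode the related hnRNPs of the A family that are standard markers of omega speckles. Hrb98DE (FBgn0001215, plus strand, chromosome 3R, 28599834 to 28605777) was at 140 FPKM in the EP3037 group, 174 in the RNAi group, 164 in the Ras group and 142 in the control. Its smallest p was 0.172, for EP3037 over RNAi in the authors' deposited table. Hrb87F (FBgn0004237, minus strand, chromosome 3R, 13656846 to 13660531) lies close to sqd on the same chromosome and strand, and was at 93.6 FPKM in the EP3037 group, 125 in the RNAi group, 120 in the Ras group and 101 in the control. EP3037 over RNAi gave a log2 change of -0.42 with an error of 0.36 in the authors' deposited table (p = 0.0299, q = 0.634). Both genes had the order RNAi, Ras, control, EP3037 from high to low, with no pair of neighbours in this order past the threshold. The lncRNA stood at 6.47 times the FPKM of Hrb87F in the EP3037 group, 3.18 times in the RNAi group, 3.24 times in the Ras group and 5.37 times in the control, ratios that carry the error of Hsromega.

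The glorund gene glo (FBgn0259139, minus strand, chromosome 3R, 11815206 to 11819339), an hnRNP of the F/H family that represses nanos mRNA in the embryo, showed the smallest p of any protein gene between EP3037 and RNAi. It was at 43.0 FPKM in the EP3037 group, 64.3 in the RNAi group, 59.9 in the Ras group and 50.8 in the control. EP3037 over RNAi gave a log2 change of -0.58 with an error of 0.36 in the authors' deposited table (p = 0.0029, q = 0.163), and EP3037 over Ras gave -0.48 with an error of 0.36 (p = 0.0225, q = 0.549). The smallest fold called at a like error was 1.58 in either direction, and glo in the EP3037 group was at 0.669 of its RNAi level. The order of its groups was that of Hrb87F.

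The genes caz and nonA lie near each other on the X chromosome. caz (FBgn0285954, plus strand, 16288810 to 16293520), which encodes a nuclear RNA-binding protein, was at 40.8 FPKM in the EP3037 group, 53.7 in the RNAi group, 45.0 in the Ras group and 39.7 in the control. RNAi over control gave a log2 change of 0.44 with an error of 0.36 (p = 0.0247, q = 0.573), and EP3037 over RNAi gave -0.40 (p = 0.0413), both in the authors' deposited tables. nonA (FBgn0004227, plus strand, 16361569 to 16371547), whose product is related to the paraspeckle protein NONO of mammals and is needed for normal vision and courtship song, was at 24.1 FPKM in the EP3037 group, 34 in the RNAi group, 31.2 in the Ras group and 24.1 in the control. Its log2 change was 0.49 with an error of 0.44 for RNAi over control (p = 0.0397, q = 0.729) and -0.49 with an error of 0.43 for EP3037 over RNAi (p = 0.0379, q = 0.713), both in the authors' deposited tables. With the median of rows near the length of its longest annotated transcript subtracted, these were 0.25 and -0.19 for nonA. Neither gene was called. TBPH (FBgn0025790, minus strand, chromosome 2R, 23859067 to 23862593), the homologue of human TARDBP, was at 31.4 FPKM in the EP3037 group, 35.2 in the RNAi group, 36 in the Ras group and 31.1 in the control, with a smallest p of 0.328 in the authors' deposited tables.

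The smooth gene sm (FBgn0003435, minus strand, chromosome 2R, 19517864 to 19631508), an hnRNP of the L family, had the widest range and came nearest to a call. It was at 13.8 FPKM in the EP3037 group, 21.5 in the RNAi group, 21.9 in the Ras group and 10.7 in the control. Ras over control was 2.04-fold, a log2 change of 1.03 with an error of 0.53 in the authors' deposited table (p = 0.0015, q = 0.104). RNAi over control was 2.01-fold, with a log2 change of 1.00 and an error of 0.61 in the authors' deposited table (p = 0.0036, q = 0.189). EP3037 over Ras gave -0.67 with an error of 0.53 in the authors' deposited table (p = 0.0279, q = 0.613), while EP3037 over control was 1.28-fold (p = 0.305 in the authors' deposited table). EP3037 over RNAi gave -0.64 with an error of 0.61 in the authors' deposited table (p = 0.06). As deposited, the Ras and RNAi levels were close, with a log2 change of -0.03 for RNAi over Ras, and the EP3037 level lay nearer that of the control. A transcript length trend (a running median over rows of like length) was also subtracted, taken at the longest sm transcript of 15344 nt. EP3037 was then at 0.41 over control, -0.24 over RNAi and -0.42 over Ras, and thus nearer RNAi. The shortest sm transcript has 1179 nt. For EP3037 over RNAi the trend was 0.144 at 1000 nt and -0.400 at 16000 nt, so which group lies nearer depends on the length taken. These comparisons share groups and do not count as separate evidence. The smallest log2 change called at a like error was 1.04. The sm row holds a long gene with 21 annotated transcripts and overlaps 5 other rows, so reads of these may not be separable.

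**Figure D4:**
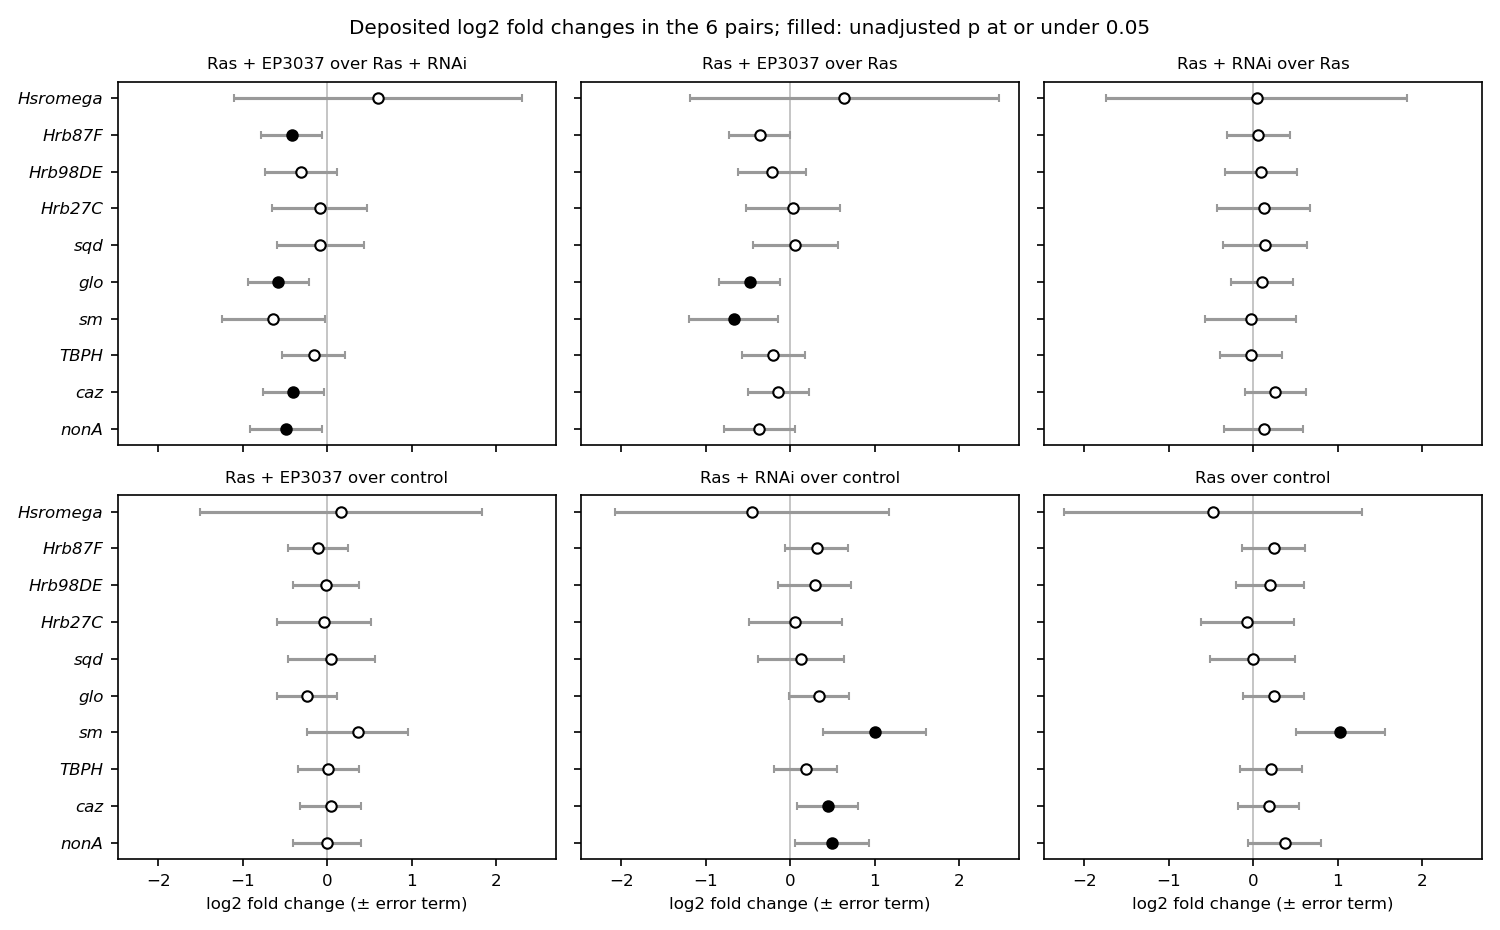
Deposited log2 fold change (x axes) of the 10 genes (y axes) in the 6 pairs of groups, with the first-named group over the second; bars are the error term and filled points have an unadjusted p at or under 0.05. Filled points lie left of 0 for EP3037 over RNAi (Hrb87F, glo, caz, nonA) and right of 0 for RNAi over control (sm, caz, nonA); none was called.

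Seen over the set, 0 of 10 genes were called by Cuffdiff in each pair. The background of called rows was 0.773% for Ras over control, 1.72% for RNAi over control, 0.643% for EP3037 over control, 0.743% for RNAi over Ras, 0.786% for EP3037 over Ras and 1.74% for EP3037 over RNAi. A count of 0 of 10 is near these shares and is no result about the members. With the deposited p taken unadjusted at 0.05, 1 of 10 genes in the authors' deposited tables was higher for Ras over control (4.63% of all tested rows in either direction, 3.37% higher), 3 were higher for RNAi over control (8.74%, or 5.72% higher), and 0 differed for EP3037 over control (3.52%) and for RNAi over Ras (5.20%). For EP3037 over Ras 2 were lower (5.89%, or 4.16% lower), and for EP3037 over RNAi 4 were lower (9.43%, or 6.37% lower). The set was proposed with results of these data known, so these counts are a description.

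In 2 pairs that share the RNAi group, and so are not separate evidence, all 9 protein genes lay on one side of 0. For EP3037 over RNAi 9 of 9 had a log2 change below 0, from -0.64 to -0.08 with a median of -0.40, where 49.4% of 9077 rows at 1 FPKM or more in both groups were below 0 and their median was 0.01. For RNAi over control 9 of 9 were above 0, with a median of 0.31 against -0.01 for all rows, and for Ras over control 7 of 9 were, with a median of 0.21 against 0.04. For RNAi over Ras 7 of 9 were above 0, with a median of 0.10 against -0.02. For EP3037 over Ras 7 of 9 were below 0, with a median of -0.22 against -0.06, and for EP3037 over control 5 of 9 were, with a median of -0.00 against -0.02. The highest of the 4 levels was in the RNAi group for 7 of 9 genes and in the Ras group for 2, while the RNAi group was highest in 30.2% of 5202 rows at 10 FPKM or more everywhere. The summed level of the 9 genes was 1235 FPKM in the EP3037 group, 1411 in the RNAi group, 1304 in the Ras group and 1252 in the control.

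Fold changes in these pairs moved with transcript length over all rows, and this touches the long members. For EP3037 over RNAi the running median of the log2 change over rows of like length was 0.144 at 1000 nt and -0.365 at 8000 nt. Each gene was placed at its longest annotated transcript. With this running median subtracted, 7 of 9 protein genes stayed below 0, with a median of -0.24. The shorter genes moved little: glo was at -0.61, caz at -0.45, Hrb87F at -0.40 and Hrb98DE at -0.33. TBPH, at 3222 nt, moved from -0.16 to -0.09. The long ones moved towards 0 or past it: sm was at -0.24, nonA at -0.19, sqd at 0.15 and Hrb27C at 0.27. For RNAi over control 7 of 9 stayed above 0, among them sm at 0.66, while sqd was at -0.03 and Hrb27C at -0.27. Hsromega, with the longest transcript of the set, moved away from 0, to 1.00 for EP3037 over RNAi and to -0.80 for RNAi over control, still within its error of 1.70 and 1.62. The trend taken for Hsromega is that of the longest rows, which may be shorter than its 21216 nt. Its shortest annotated transcript has 1176 nt. At 1000 nt the trend was 0.144 for EP3037 over RNAi and -0.118 for RNAi over control. Subtracting the trend of that length would move Hsromega towards 0, so the direction depends on the transcript taken.

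**Figure D5:**
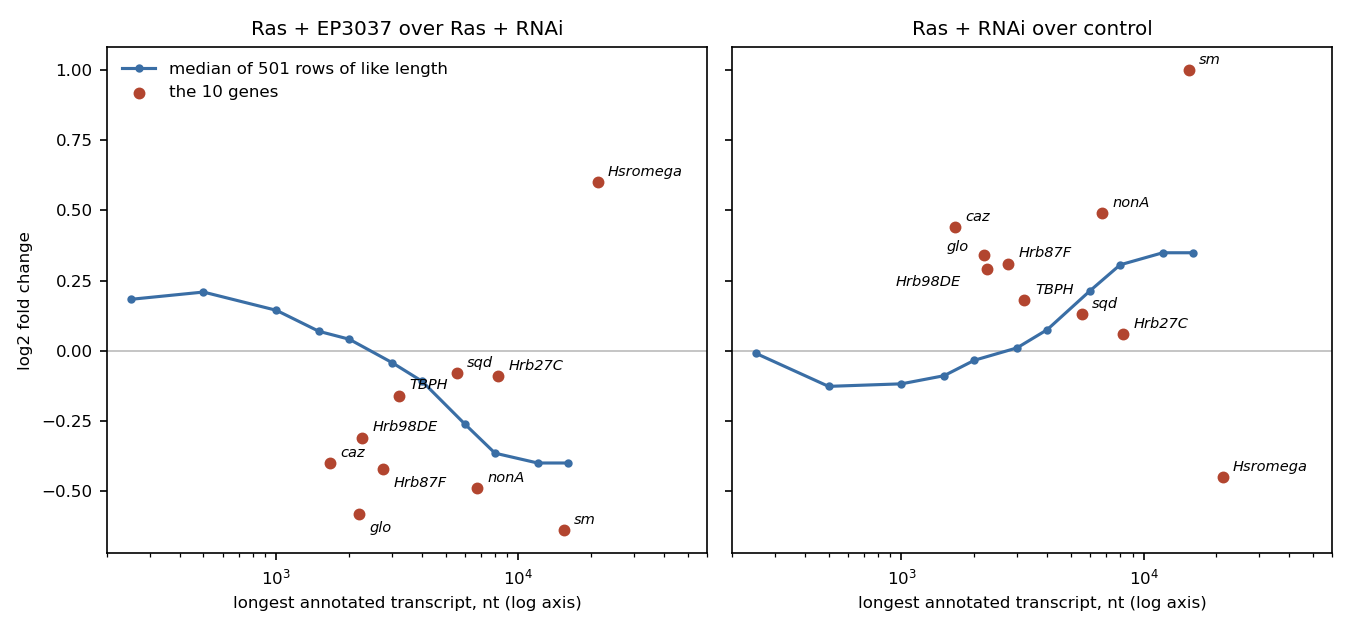
Log2 fold change (y axis) against the longest annotated transcript in nt (x axis, log scale) for EP3037 over RNAi (left) and RNAi over control (right); red points are the 10 genes and the blue line is the running median over rows of like length. In the left panel the line runs from about 0.183 at 250 nt to -0.400 at 16000 nt, and glo, caz, Hrb87F and Hrb98DE lie farther below it than nonA and sm.

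Among 24 other hnRNP and RNA-binding protein genes, 1 was called in any pair, where 0.643% to 1.74% of all tested rows were called per pair. This was Atx2, the fly ataxin-2, a regulator of translation that binds polyadenylate-binding protein. It was at 20.5 FPKM in the EP3037 group, 47.0 in the RNAi group, 34.7 in the Ras group and 21.4 in the control. Atx2 fell 2.29-fold in the EP3037 group relative to RNAi and 1.69-fold relative to Ras (q = 0.00789 and 0.0359 in the authors' deposited tables). It rose 2.20-fold in the RNAi group relative to the control (q = 0.00789 in the authors' deposited table). The Ras group was 1.62-fold over the control without a call (q = 0.0943 in the authors' deposited table). Its group order, RNAi, Ras, control, EP3037, was that of Hrb87F, Hrb98DE and glo. The list as a whole had a median log2 change of -0.25 for EP3037 over RNAi, against 0.02 for all tested rows, and of 0.25 for RNAi over control, against -0.00. With unadjusted p in the authors' deposited tables, 5 of 24 were lower for EP3037 over RNAi, against 6.37% of all tested rows, and 5 of 24 were higher for RNAi over control, against 5.72%. For EP3037 over Ras 1 was lower and 1 higher. For EP3037 over control and for Ras over control 1 was higher, and for RNAi over Ras 0 differed. The gene higher with EP3037 was fne, at 1.46 FPKM there and 0.725 in the control (p = 0.0094 in the authors' deposited table). Pep, a zinc finger protein of hnRNP complexes at ecdysone puffs, was at 155 FPKM in the EP3037 group, 207 in the RNAi group, 183 in the Ras group and 149 in the control (p = 0.0477 for EP3037 over RNAi in the authors' deposited table).

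Of 10 genes of proteins that interact with hsrω or its speckles 0 were called at the deposited q. Per pair 0.643% to 1.74% of all tested rows were called, so this count is no result about the list. Nearest was nej, which encodes the acetyltransferase CBP, at 18.8 FPKM in the EP3037 group, 32.9 in the RNAi group, 28.9 in the Ras group and 19.8 in the control. EP3037 over RNAi gave a log2 change of -0.81 with an error of 0.40 in the authors' deposited table (p = 0.00055, q = 0.0509). In this pair 191 rows were called at the deposited q and 234 with p-values adjusted within it. By its p nej falls among those 234, so the 0 holds at the deposited q only. The authors' deposited tables also gave nej -0.62 for EP3037 over Ras (p = 0.0095) and 0.74 for RNAi over control (p = 0.00105, q = 0.0809). For RNAi over control 188 rows were called at the deposited q and 232 with p-values adjusted within the pair. By its p nej falls among those 232 too. Ras over control gave 0.55 (p = 0.0199 in the authors' deposited table). Hsf, the heat shock transcription factor, was at 32 FPKM in the EP3037 group, 29.2 in the RNAi group, 29.2 in the Ras group and 40.6 in the control. The authors' deposited tables gave p = 0.0149 for RNAi over control and p = 0.0226 for Ras over control. The median log2 change of these 10 genes was -0.06 for EP3037 over RNAi, against 0.02 for all tested rows, and 0.04 for EP3037 over Ras, against -0.05. It was -0.10 for Ras over control, against 0.05, and -0.10 for EP3037 over control, against -0.01. RNAi over control gave -0.02, against -0.00, and RNAi over Ras gave 0.04, against -0.02. No length trend was subtracted for this list, nej included, or for the other hnRNP and RNA-binding protein genes, Atx2 included. Its part in their changes was not tested.

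The rows whose pattern over the 4 groups was most like that of Hsromega were sought among 4869 single-gene rows at 10 FPKM or more in every group, by the root mean square distance of centred log2 FPKM. The nearest were CR43626 at a distance of 0.044, the cell death gene rpr at 0.069, Ugt86Da at 0.083, CG33217 at 0.088 and snoRNA:Me28S-U1848 at 0.090. rpr was at 17.4 FPKM in the EP3037 group, 10.9 in the RNAi group, 12.1 in the Ras group and 15.4 in the control. For sm the nearest were snoRNA:Dek-a at 0.087, snoRNA:Psi28S-1135f at 0.115, snoRNA:SC35-b at 0.116, CG31705 at 0.119 and ImpE1 at 0.133. ImpE1, an ecdysone-induced membrane protein, was at 50.8 FPKM in the EP3037 group, 90.0 in the RNAi group, 105 in the Ras group and 46.5 in the control. Likeness over 4 pooled values is a description, and in the case of Hsromega it rests on levels with relative errors of 78.0% to 93.6%. The rows found can carry large errors too. Of those like sm, snoRNA:SC35-b had a median error of the log2 change of 3.04, and CG31705 one of 0.377.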

How the data were processed

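Cuffdiff 2.1.1, Cufflinks, TopHat and Bowtie, with build dm6, were used per the submitters' processing notes, and the sources used here give no annotation, filter or strand setting. Libraries were made with a stranded kit for total RNA and read as 50 bp pairs, per the labels' protocols. The authors deposited 6 pairwise tables of 15903 or 15904 rows with a pooled FPKM per group, a test statistic (a score), a p-value and a q-value, and another column with the log2 fold change. The input labels list a sample of the RNAi group as 2 inputs, so this group entered with 4, which bears on every p-value of the RNAi pairs. Adjusting the p-values of the 6 tables together (65927 tests, Benjamini-Hochberg) gave the deposited q to within 1.56e-05. Read depth is unknown and no interval from counts was made; the precision is that of the Cuffdiff error term.

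Members were matched by name in the comma-split gene column. Coordinates are the authors' on dm6, with starts written from 1. Strand and transcripts are from Ensembl release 115 (BDGP6, dm6 coordinates); the span of 9 members was identical, and that of glo ends later there. Transcript lengths matched 14928 rows. Named genes were all members, list rows with a call and the 5 rows most like Hsromega and sm; other genes named were chosen after their values were seen. Members and lists were chosen with earlier results of these data known. Calculations used Python 3.11.15, numpy 2.4.6, pandas 2.3.3 and scipy 1.17.1, and were tested on simulated data. Alternatives were a q of 0.01, an unadjusted p, adjustment within a comparison, a floor of 1 FPKM, a pseudocount of 1, centring and a length trend.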

Additional observations from a re-analysis of the deposited data

How the results depend on the processing

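No member was called at a q of 0.01, with p-values adjusted within each comparison, or with that adjustment over rows at 1 FPKM or more in both groups; within a comparison the smallest adjusted p of a member was 0.0998, for glo in EP3037 over RNAi. With unadjusted p the counts were 1 for Ras over control, 3 for RNAi over control, 2 for EP3037 over Ras and 4 for EP3037 over RNAi. A pseudocount of 1 FPKM turned no sign among the 60 log2 changes. Subtracting the median of all rows put Hrb98DE at 0.00 and nonA at 0.02 for EP3037 over control. The length trend was taken at the longest annotated transcript of each gene. Subtracting it turned Hsromega to -0.09 and Hrb27C to -0.01 for RNAi over Ras, and Hrb27C to -0.27 and sqd to -0.03 for RNAi over control. It also turned Hrb27C to 0.02 and nonA to 0.05 for EP3037 over control, and Hrb27C to 0.27 and sqd to 0.15 for EP3037 over RNAi. The remaining changes kept their sign under these alternatives. No paired analysis was possible because the tables hold 1 pooled value per gene and group, and for that reason no replicate could be left out.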

Other observations

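Rows nested in the members give further values. The locus of Hrb98DE holds 7 rows of box H/ACA snoRNAs, which guide pseudouridylation of ribosomal RNA. The most abundant in the EP3037 and RNAi groups, snoRNA:Psi28S-3405b, was at 427 FPKM in the EP3037 group, 697 in the RNAi group, 286 in the Ras group and 296 in the control, and snoRNA:Psi28S-3405d, the most abundant in the Ras group and the control, had 402, 492, 330 and 415 FPKM in that order of groups. For RNAi over control 7 of 7 had a log2 change above 0, with a median of 0.54, and 0 were called by Cuffdiff or had an unadjusted p at or under 0.05 in the authors' deposited table, the smallest p being 0.595. For Ras over control 5 of 7 were below 0, with a median of -0.05 beside 0.20 for Hrb98DE, and for EP3037 over control 4 of 7 were below 0, with a median of -0.04 beside -0.02. The locus of sm holds 5 rows at 0.815 to 4.60 FPKM. For Ras over control 5 of 5 of these had a log2 change above 0, with a median of 1.18 beside 1.03 for sm itself, and 0 were called or had an unadjusted p at or under 0.05 in the authors' deposited table. For RNAi over control 4 of 5 were above 0, with a median of 0.55 beside 1.00 for sm. For EP3037 over RNAi 2 were above 0, 2 were below it and CR44474 was at -0.00 after rounding, with a median that rounds to 0.00 beside -0.64. Whether these rows and sm share reads was not tested.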
